A study of Mus musculus with 2 samples.

Results

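Transforming growth factor beta (TGF-beta) and bone morphogenetic protein (BMP) signaling was described in mouse prostaspheres through 10 genes: the ligands Tgfb1, Tgfb2, Tgfb3, Bmp4 and Bmp7, the targets Tgfbi, Id1, Id2 and Id3, and the inhibitory Smad gene Smad7. They were taken as all spots that were not controls and carried one of these names on both arrays, which gave 13 probes of 41174. Of the 10 genes, 9 had a probe that both arrays marked as clearly brighter than background in at least 1 shared dye, and were thus among 15131 genes tested. The genes were selected with their ratios on these arrays known, and Tgfbi was selected on its ratio, so their values are given as a description with no test.

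Prostaspheres are spheres that prostate epithelial cells form when cultured in matrigel. The array study asked which transcripts depend on the transcription factor Sox9 in these cells. On the genotype comparison array, Cy5 held RNA of wild-type C57/Bl6J cells treated with tamoxifen (TAM), and Cy3 held RNA of ER-Sox9flox/flox cells (ERCre+/+Sox9flox/flox in the labels) treated with TAM. On the treatment comparison array, Cy5 held RNA of ER-Sox9flox/flox cells given vehicle, and Cy3 held RNA of ER-Sox9flox/flox cells given TAM. All cells had grown in matrigel with dihydrotestosterone for 6 days, and were then exposed to 5 µM TAM or vehicle for 6 days. The Cre line named in the methods is Rosa26ERCre, whose Cre is made in nearly all cell types and is activated by TAM. The labels name urogenital sinus (UGS) epithelium from embryos at 16 days post conception (dpc), but adult prostate is the starting tissue of the sphere assay in the methods. Both RNAs of the second array carry 1 genotype label, Sox9 null, and were told apart by their treatment labels. Source names call the Cy5 RNA SOX9 and the Cy3 RNA control, and, read as the deleted gene, would turn every sign. The brightest Sox9 probe was higher in Cy5 on both arrays, which is the direction of the titles used here (its values are given with those of the other Sox9 probes below). Every log2 ratio below is Sox9-expressing (Cy5) over Sox9-deleted (Cy3) RNA.

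Ligands of the TGF-beta and BMP family are secreted and bind paired serine/threonine kinase receptors on the cell surface, which phosphorylate Smad proteins. TGF-beta signals mostly through Smad2 and Smad3 and BMPs through Smad1, Smad5 and Smad9, and either set joins Smad4 to enter the nucleus. In the prostate, TGF-beta made by stroma and epithelium restrains epithelial growth, and BMP4 and BMP7 limit the budding and branching of the developing ducts. Id genes are classical BMP targets, and Tgfbi encodes an extracellular matrix protein first found as induced by TGF-beta.

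The start of the gene with the highest ratio of the 10, Tgfbi, is shown for its Smad-type letters. The 250 bases before the start of Tgfbi on the + strand, chr13:56609336-56609585 of GRCm38.p6, were taken from RefSeq. Capitals mark matches to the Smad box CAGAC, which reads GTCTG on the other strand, and to the palindrome GGCGCC found in BMP-responsive elements.
Tgfbi promoter: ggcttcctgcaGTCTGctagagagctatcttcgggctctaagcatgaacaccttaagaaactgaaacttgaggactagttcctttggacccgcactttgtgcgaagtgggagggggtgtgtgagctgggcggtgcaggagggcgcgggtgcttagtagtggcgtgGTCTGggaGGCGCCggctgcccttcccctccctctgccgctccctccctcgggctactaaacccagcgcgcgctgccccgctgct
The Smad box occurred at 239 to 235 and at 85 to 81 bases before the start, and GGCGCC lay between the second of these and the start, at 77 to 72, without overlap. The SOX core AACAAT (or ATTGTT) was searched for on both strands as well and was not among these letters. Over the same window of 32851 RefSeq promoters, 42.2% held a Smad box, 9.59% held GGCGCC and 9.42% held the SOX core. Promoters of 6 of the 10 genes were searched, namely Tgfb1, Tgfb2, Bmp4, Tgfbi, Id2 and Id3, of which 3 held a Smad box (Tgfb2, Tgfbi and Id3), 2 held GGCGCC (Tgfbi and Id2) and 0 the SOX core. A match is a string of letters and no measured binding site.

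The array probes are 60-mers, placed on the mm9 build by the array annotation. The first 30 bases are shown, 5′ to 3′, of the probes behind the largest ratio (Tgfbi) and behind the widest differences between the arrays among genes of opposite sign (Tgfb3 and Id3), and of both Id1 probes, in which capitals mark the stretch they share.
Tgfbi probe, chr13:56740460-56740519, + strand: aaatgtgaatcaagcagtccggcattctgg
Tgfb3 probe, chr12:87397804-87397863, - strand: tcccatgtctgacatgatgactcggcccca
Id3 probe, chr4:135700075-135700249, + strand: tccgcatctcccgatccagacagctgagct
Id1 probe 1, chr2:152563036-152563095, + strand: gaggaaatatTTTGTATTGTATATTACAAT
Id1 probe 2, chr2:152563046-152563105, + strand: TTTGTATTGTATATTACAATgatcactggc
The 2 Id1 probes begin 10 bases apart and share 50 bases, so they read the same stretch of the transcript. The Id3 probe spans 175 bases of the genome, which is longer than the probe.

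Both arrays lay on 1 slide, and no spot was marked as saturated. Between 22184 and 23150 of the 41174 probes were well above background in each of the 4 RNAs. Of 3 Sox9 probes, 2 had means of 2.53 and 1.22 and 1 went the other way at -1.11, and the brightest read 1634 in wild-type cells, 253 in the ER-Sox9flox/flox + TAM cells beside them, 1198 in vehicle-treated cells and 232 in the ER-Sox9flox/flox + TAM cells of the second array. Dyes were swapped on neither array, so any preference of a probe for Cy5 and an effect of Sox9 cannot be told apart. The genotype comparison also set different mouse lines against each other, and the treatment comparison set vehicle against TAM. On both arrays, ERCre exposed to TAM was present in the Cy3 RNA only. An effect of active Cre and an effect of Sox9 loss thus cannot be told apart for any gene. Nothing in the labels says that the cultures behind the arrays were separate, so each SD and p-value measures the spread between 2 arrays only. Brightness below is in the scanner's arbitrary units after background correction, normalization within and between arrays and the addition of 50, so probes near 100 lie close to background and their log2 ratios are understated. Brightness of one probe is not compared with that of another.

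Tgfbi was the one gene of the 9 that was at least 2-fold higher with Sox9 on both arrays. Its brightness was 1933 in wild-type cells treated with TAM and 419 in the ER-Sox9flox/flox + TAM cells of the same array. On the other array it was 3387 in vehicle-treated ER-Sox9flox/flox cells and 448 in ER-Sox9flox/flox + TAM cells. Both Sox9-expressing RNAs thus lay above both Sox9-deleted RNAs, and the deleted RNAs were close to each other. The log2 ratio of Tgfbi was 2.20 in the genotype comparison, a 4.61-fold difference, and 2.92 in the treatment comparison, a 7.56-fold difference. The mean of 2.56 ± 0.50 (SD, n = 2), a 5.90-fold difference, was larger than the spread between the arrays. In bulk RNA, fewer cells that make Tgfbi and less Tgfbi RNA per cell cannot be told apart. Tgfbi had the rank of 4 by mean log2 ratio among the 15131 tested genes, 8 in the genotype and 6 in the treatment comparison. Of all tested genes 0.535% were at least 2-fold different the same way on both arrays and 0.377% were at least 2-fold higher, a share printed here as background for a gene that was selected on this value.

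The tested genes nearest to Tgfbi in their pair of log2 ratios, by Euclidean distance over the 2 arrays, were Stfa1 (distance 0.246), Dapl1 (0.351), BC100530 (0.598), Sox9 (0.736) and Duoxa1 (0.760). Stfa1, which encodes a cysteine protease inhibitor of the stefin A family, had log2 ratios of 2.18 and 3.16. Like Tgfbi, Stfa1, Dapl1, BC100530 and Duoxa1 had the higher of their 2 ratios in the treatment comparison, whereas Sox9, at 2.69 and 2.37, had it in the genotype comparison. A distance over 2 arrays is a description of these values only.

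**Figure D1:**
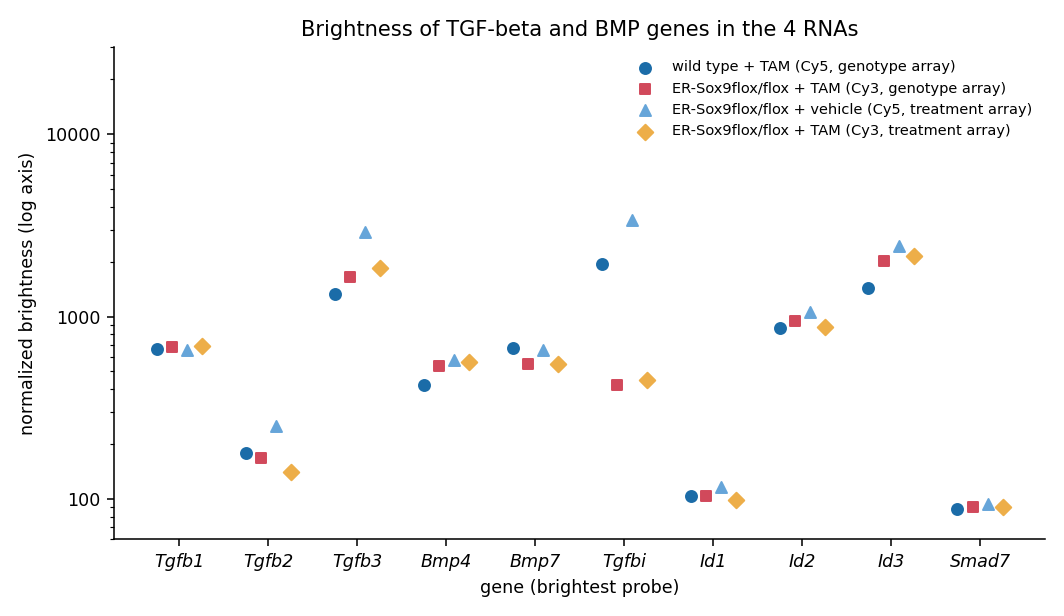
Normalized brightness (y, logarithmic axis) of the brightest probe of each gene (x) in the 4 RNAs, 1 point for each RNA and so no error bar. The 2 blue symbols of Tgfbi (1933 and 3387) stand apart from its 2 Sox9-deleted RNAs (419 and 448), while the 4 points of each other gene lie within 2.18-fold of each other.

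Tgfb1, which encodes the TGF-beta ligand most widely made in adult tissues, was nearly level in the 4 RNAs. Its brightness was 664 in wild-type cells, 680 in the ER-Sox9flox/flox + TAM cells beside them, 653 in vehicle-treated cells and 692 in the other ER-Sox9flox/flox + TAM cells. These lay within 1.06-fold of each other, and the log2 ratios were -0.04 and -0.09, a mean of -0.06 ± 0.03 (SD, n = 2). Tgfb1 was read from 9 spots on each array, between which the log2 ratio had an SD of 0.048 and 0.062, about as large as the ratios themselves. It was the one gene of the 9 with a ratio below 0 on both arrays, and 33.8% of tested genes were lower on both.

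Tgfb2, a ligand that is best known from development and from epithelial to mesenchymal interactions, was dim. Its brightness was 179 in wild-type and 168 in deleted cells of the genotype comparison, and 250 in vehicle-treated and 140 in deleted cells of the treatment comparison. Only the vehicle-treated RNA stood out. The log2 ratio was 0.09 in the genotype and 0.84 in the treatment comparison (mean 0.47 ± 0.53, SD, n = 2), so the spread between the arrays was larger than the mean. Tgfb2 is in one of the annotated-theme lists that the study made from these arrays, as is Tgfb3.

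Tgfb3, the ligand required for fusion of the palate, went opposite ways on the arrays. It read 1336 in wild-type and 1648 in deleted cells, but 2918 in vehicle-treated and 1856 in deleted cells. The vehicle-treated RNA was the highest of the 4 and the wild-type RNA the lowest, a 2.18-fold range that the deleted RNAs lay within. The log2 ratio was -0.30 in the genotype and 0.65 in the treatment comparison, and averaged 0.18 ± 0.68 (SD, n = 2). The difference of treatment minus genotype comparison, 0.96, was exceeded in that direction by 2.38% of tested genes. Genes that differed as much the other way are not in this share.

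The BMP ligands were closer to level. Bmp4, which signals from the mesenchyme around the prostatic buds, read 422 in wild-type and 536 in deleted cells, and 577 in vehicle-treated and 564 in deleted cells. Its wild-type RNA was the low one, and the other 3 lay close together. The log2 ratio was -0.35 and 0.03 (mean -0.16 ± 0.27, SD, n = 2), with an SD over 10 spots of 0.040 and 0.029 within the arrays. Bmp7, a ligand that limits branching of the prostatic ducts, read 670 in wild-type and 547 in deleted cells, and 657 in vehicle-treated and 552 in deleted cells. Both Sox9-expressing RNAs of Bmp7 were above both Sox9-deleted RNAs. Its log2 ratio was 0.29 and 0.25, a mean of 0.27 ± 0.03 (SD, n = 2) or 1.21-fold, and a second probe, which shares no bases with the first, gave 0.29 and 0.24. Bmp7 differed by less than 2-fold, and was the ligand whose 2 arrays lay closest together relative to their mean.

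Id1, Id2 and Id3, whose proteins bind and block basic helix-loop-helix transcription factors, differed by less than 2-fold on each array. Id4 is given with the other targets below. Id1 lay close to background. Its brightest probe read 104 in wild-type and 103 in deleted cells, and 117 in vehicle-treated and 98 in deleted cells, and was not well above background in the deleted RNA of the genotype comparison. Its log2 ratios were 0.02 and 0.25 (mean 0.13 ± 0.16, SD, n = 2), and the overlapping probe, well above background in all 4 RNAs, gave 0.06 and 0.03. On the scanner software's own ratios, the mean of the brightest Id1 probe was 1.22 and Id1 passed the 2-fold rule as well, so its size of change is uncertain.

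Id2 read 868 in wild-type and 940 in deleted cells, and 1059 in vehicle-treated and 872 in deleted cells. Its log2 ratio was -0.12 in the genotype and 0.28 in the treatment comparison (mean 0.08 ± 0.28, SD, n = 2), and a second probe 545 bases away along the transcript gave -0.02 and 0.37. Both probes had the higher ratio in the treatment comparison. Id3 read 1434 in wild-type and 2019 in deleted cells, and 2437 in vehicle-treated and 2155 in deleted cells, so that the wild-type RNA was again the lowest and the vehicle-treated RNA the highest. Its log2 ratio was -0.49 and 0.18, a mean of -0.16 ± 0.47 (SD, n = 2).

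Smad7, whose protein binds the activated receptors and blocks Smad phosphorylation, could not be measured here. Its 1 probe was not well above background in any of the 4 RNAs, at 88, 90, 94 and 90, and no fold is given.

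**Figure D2:**
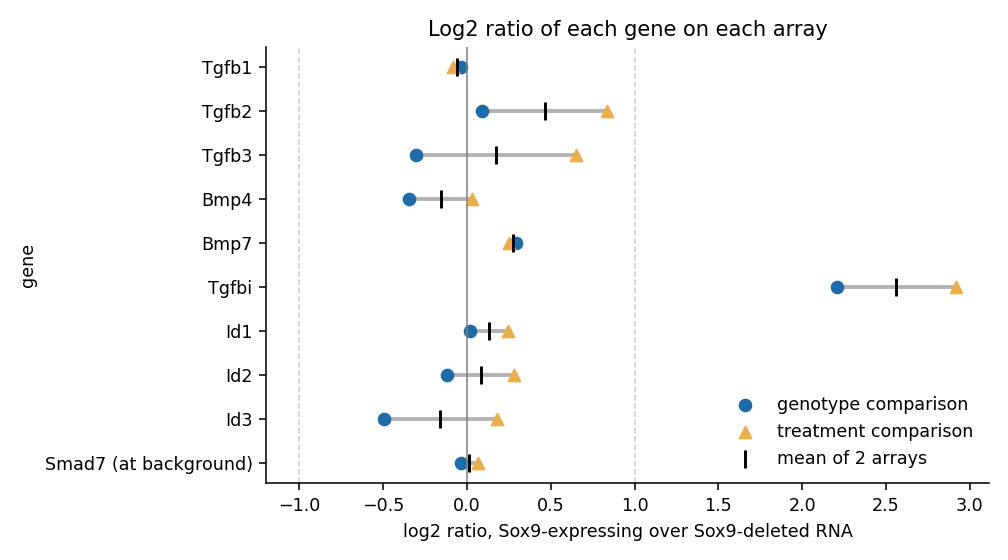
Log2 ratio of Sox9-expressing over Sox9-deleted RNA (x) for the brightest probe of each gene (y), with a circle for the genotype comparison, a triangle for the treatment comparison and a bar for the mean of the 2 arrays. The dashed lines mark a 2-fold difference, which Tgfbi alone passed, at 2.20 and 2.92, and the grey line of Tgfb3, Bmp4, Id2 and Id3 crosses 0.

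Of the 9 genes, 4 were higher with Sox9 on both arrays (Tgfb2, Bmp7, Tgfbi and Id1), 1 was lower on both (Tgfb1), and 4 were lower in the genotype and higher in the treatment comparison (Tgfb3, Bmp4, Id2 and Id3). Of all tested genes 33.8% were higher on both arrays and 18.4% were lower in the genotype and higher in the treatment comparison. The median log2 ratio of the 9 was -0.04 in the genotype and 0.25 in the treatment comparison, against -0.01 and 0.01 over all tested genes, and that of the means was 0.13, against 0.003. The ratio was higher in the treatment than in the genotype comparison for 7 of the 9 genes, with a median difference of 0.40, against 0.007 over all tested genes. The genes were chosen with these ratios known, and nothing is read from these shares.

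For these genes, as over all tested genes, the arrays differed more in the Sox9-expressing than in the Sox9-deleted RNA. The log2 difference in brightness between the deleted RNAs of the 2 arrays lay between -0.17 and 0.26 for the 9 genes, with a median of -0.03. Between wild-type cells treated with TAM and vehicle-treated ER-Sox9flox/flox cells it lay between -1.13 (Tgfb3) and 0.03 (Bmp7), with a median of -0.45. The vehicle-treated RNA was the highest of the 4 for 7 of the 9 genes, and the wild-type RNA the lowest for 4 of them. Over all tested genes the median between the deleted RNAs was 0.02, with a 5th to 95th percentile of -0.15 to 0.20, and that between the wild-type and vehicle-treated RNAs 0.01, with -0.58 to 0.35. The wider spread between the Sox9-expressing RNAs was thus present over the whole array. The median for the 9 genes was -0.45, against 0.01 over all tested genes. Because the genes were chosen with their ratios known, nothing is read from this difference. These levels were set across arrays by normalizing the brightness between them.

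Stromal markers moved with the same split between the arrays. Of 10 stromal genes, all tested, 9 were lower in the genotype and higher in the treatment comparison, with a median of -0.74 in the first and 0.78 in the second, and the tenth, Dcn, was lower on both. Their summed brightness was 30667 in wild-type and 54897 in deleted cells of the first array, and 81523 in vehicle-treated and 47979 in deleted cells of the second. Vehicle-treated cells were highest and wild-type cells lowest of the 4, as they were for Tgfb3, Bmp4, Id2 and Id3. The fibrillar collagen genes Col1a1 (-1.26 and 1.03) and Col3a1 (-1.63 and 1.13) had wider differences than any of the 9 genes. Of 6 smooth muscle genes 5 showed the same split, with a summed brightness of 13896, 20216, 32977 and 22987 in the same order of RNAs. All of these stromal and smooth muscle markers were well above background in each of the 4 RNAs. Tgfbi too was brighter in vehicle-treated (3387) than in wild-type cells (1933). Its difference of treatment minus genotype comparison, 0.71, was exceeded in that direction by 4.08% of tested genes. The part of stromal RNA in the values of Tgfbi, Tgfb2, Tgfb3, Bmp4, Id2 and Id3 was not tested.

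Basal epithelial markers were, like Tgfbi, higher with Sox9 on both arrays. The ratio of Tgfbi was higher in the treatment comparison, as was that of 1 of the 6 basal genes. Of 6 basal genes 6 were higher on both arrays and 4 at least 2-fold, with a median of 1.33, and their summed brightness was 365581 in wild-type and 317963 in vehicle-treated cells against 117186 and 115435 in deleted cells. The defining basal genes had log2 ratios of 2.13 and 1.91 (Krt5), 2.07 and 1.86 (Krt14) and 1.65 and 1.55 (Trp63). Of 6 genes listed as luminal, 2 were higher (Krt19 and Epcam) and 3 lower (Krt18, Cdh1 and Cldn7) on both arrays. Among them, Krt8 split at 0.01 in the genotype and -0.74 in the treatment comparison, and Krt18 had -0.28 and -1.01. The summed brightness of the 6 was 219774 and 187578 in the Sox9-expressing against 234989 and 275672 in the deleted RNAs. The endothelial markers Pecam1 and Tek and the immune markers Ptprc, Adgre1, Cd3e and Itgam were not well above background in any of the 4 RNAs. The endothelial markers Cdh5, Kdr and Vwf were dim, between 111 (Vwf) and 189 (Kdr), but well above background in all 4 RNAs. The macrophage marker Cd68 was well above background in all of them and lower with Sox9, at 333 in wild-type and 536 in deleted cells, and 318 in vehicle-treated and 545 in deleted cells (log2 ratio -0.69 and -0.77, limma adjusted p = 0.0979). The summed brightness over the 5 endothelial genes was 622 to 675, and over 5 immune genes 695 to 918. The part of epithelial composition in the values of Tgfbi was not tested.

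**Figure D3:**
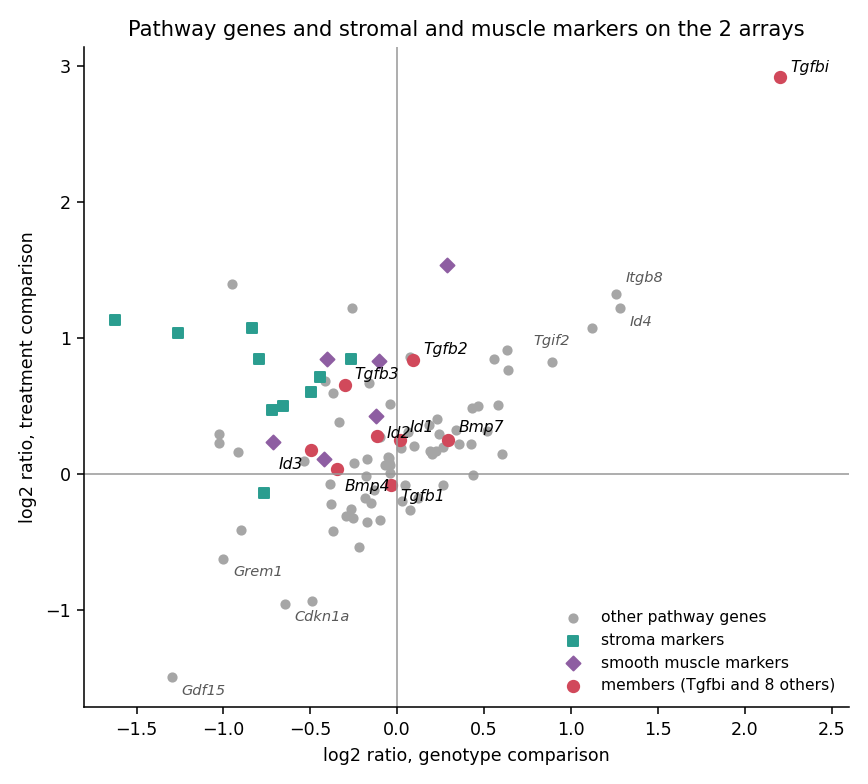
Log2 ratio in the genotype comparison (x) against that in the treatment comparison (y) for 9 of the 10 genes (red), other tested genes of the pathway (grey) and markers of stroma and smooth muscle (squares and diamonds), 1 point for each gene. Among the genes drawn Tgfbi lies farthest to the upper right, while Tgfb3, Bmp4, Id2 and Id3 lie in the upper left quadrant with 9 of 10 stromal and 5 of 6 smooth muscle markers. Basal epithelial markers, which were also higher on both arrays, are not drawn.

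The rest of the pathway was read from 81 other genes, of which 80 were on the array and 71 were tested. They were listed from general knowledge, but with earlier results of these data known. On both arrays 27 of the 71 lay above 0 and 18 below, 20 were lower in the genotype and higher in the treatment comparison, and 6 the reverse. Over all tested genes these shares were 33.8%, 33.8% and 18.4%, with 2112 of 15131 the reverse. They are the background for the counts of each list below as well. At an adjusted p under 0.05 limma called 0 of the 71, against 2 of all tested genes (0.0132%), and the methods' t-test called 0 after the same adjustment. At an unadjusted p under 0.05 limma called 30 (18 higher and 12 lower), where 19.5% of all tested genes passed, and the methods' t-test called 15, where 8.8% of all tested genes passed. The median log2 ratio of the 71 was 0.08 (-0.04 in the genotype and 0.15 in the treatment comparison). At least 2-fold the same way on both arrays were 4 of them, 3 higher and 1 lower, where 0.535% of all tested genes were. Nothing is read from these shares, because the list was written with earlier results of these data known. None of the values that follow passed the test after adjustment, so each is given as a value.

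Among 13 other tested ligands, 1 was higher and 2 lower on both arrays, and 8 were lower in the genotype and higher in the treatment comparison. Gdf15, a distant member of the family that is induced by cell stress, was the one gene at least 2-fold lower. It read 1361 in wild-type and 3342 in deleted cells, and 1330 in vehicle-treated and 3755 in deleted cells. Both deleted RNAs were above both Sox9-expressing RNAs, with a log2 ratio of -1.30 and -1.5 (mean -1.40 ± 0.14, SD, n = 2, limma adjusted p = 0.0824). The highest ligand, Inha, an inhibin subunit, had a mean of 0.18.

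Of 10 tested genes that store, release or activate the latent ligand, 6 were higher and 2 lower on both arrays. Itgb8, the integrin subunit whose pairing with the alpha v subunit releases TGF-beta from its latent form, read 384 in wild-type and 160 in deleted cells, and 330 in vehicle-treated and 132 in deleted cells. Like Tgfbi, it was more than 2-fold higher with Sox9 on both arrays, at 1.26 and 1.32 (mean 1.29 ± 0.04, SD, n = 2, limma adjusted p = 0.0741, the lowest of the 71). The lowest of them, Ltbp2, a matrix protein of the latent TGF-beta binding family, split between the arrays at -0.92 and 0.16.

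Of 11 tested receptor genes 4 were higher and 3 lower on both arrays, and of 6 Smad genes 4 were higher and 1 lower. The activin receptor gene Acvr1b was the highest receptor, at 0.46 and 0.50 (mean 0.48 ± 0.03, SD, n = 2, limma adjusted p = 0.135), and Acvrl1, known from endothelium, the lowest, at -1.02 and 0.23. Smad1, which carries BMP signals, was the highest Smad gene, at 0.43 and 0.49 (mean 0.46 ± 0.04, limma adjusted p = 0.139), and Smad3, which carries TGF-beta signals, the lowest, at -0.30 and -0.31 (mean -0.30 ± 0.01, limma adjusted p = 0.193). The ratios of Smad1 and Smad3 differed between arrays by less than their means.

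Of 10 tested secreted antagonists 4 were higher and 2 lower on both arrays. Nog, whose product noggin binds BMPs, was the highest at 0.58 and 0.51 (mean 0.54 ± 0.05, SD, n = 2, limma adjusted p = 0.122). The BMP antagonist gene Grem1 was the lowest, at -1.0 and -0.62 (mean -0.81 ± 0.27, limma adjusted p = 0.132). The BMP antagonists Nog and Grem1 thus had ratios of opposite sign.

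Of 8 tested brakes inside the cell 4 were higher and 2 lower on both arrays. Tgif2, a Smad corepressor, was at least 2-fold higher, at 1.12 and 1.08 (mean 1.1 ± 0.03, SD, n = 2, limma adjusted p = 0.0833), while its relative Tgif1 was the lowest, at -0.10 and -0.34. Of 13 other targets 4 were higher and 6 lower on both arrays. Id4, the remaining Id gene, read 381 in wild-type and 157 in deleted cells, and 352 in vehicle-treated and 151 in deleted cells, so it lay at 1.28 and 1.22 (mean 1.25 ± 0.04, SD, n = 2, limma adjusted p = 0.0782) where Id1, Id2 and Id3 had means of 0.13, 0.08 and -0.16. Cdkn1a, the gene of the cell cycle inhibitor p21, was the lowest target, at -0.65 and -0.96 (mean -0.80 ± 0.22, limma adjusted p = 0.118).

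The means of the 9 genes were recomputed under 9 alternative ways of processing, of which the 2 changes of the filter and the mean over probes left a gene with 1 tested probe as it was. The mean of Tgfbi ranged from 2.56 to 2.89, and its ratio was higher in the treatment comparison in 8 of 9, the exception being the 2 arrays scaled to 1 spread, where it was 3.0 in the genotype and 2.14 in the treatment comparison. Median centring in place of loess moved the median of all tested probes to 0.38 in the treatment comparison, and with it the means of Tgfb1, Bmp4 and Id3 turned positive, at 0.22, 0.11 and 0.17. The median of the 2-array means of all tested probes was 0.18 with that setting. The split of Tgfb3, Id2 and Id3, lower in the genotype and higher in the treatment comparison, was present in all 9, and that of Bmp4 in all but the scanner software's ratios, where its treatment value was -0.04.

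**Figure D4:**
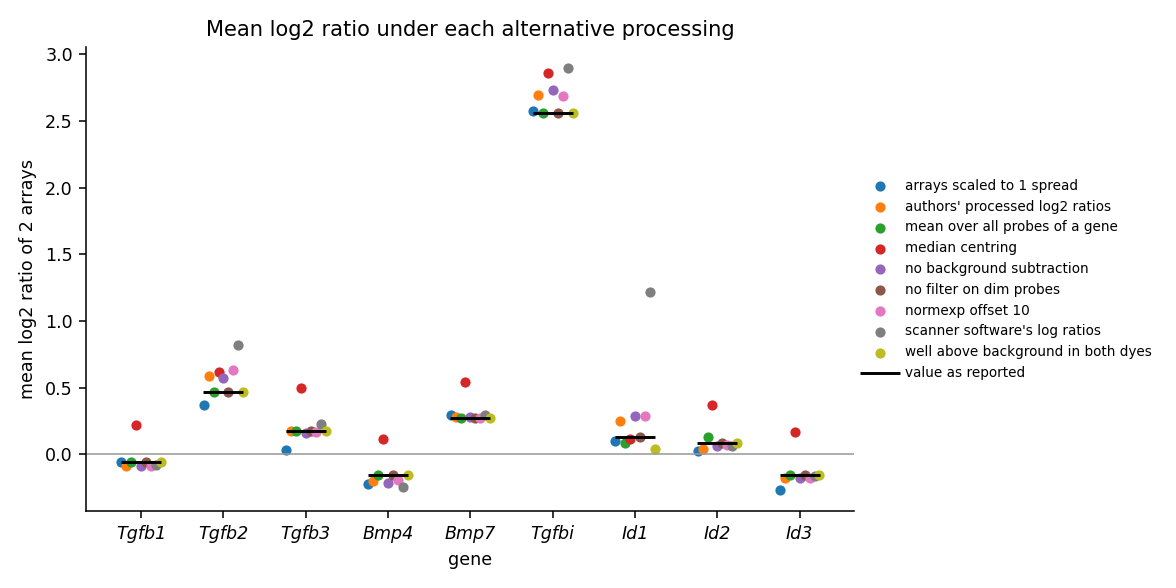
Mean log2 ratio over the 2 arrays (y) of each of the 9 tested genes (x), with a colored point for each of 9 alternative ways of processing and a black bar for the value reported. Tgfbi stays between 2.56 and 2.89, Tgfb1, Bmp4 and Id3 pass 0 with median centring only, and Id1 reaches 1.22 on the scanner software's ratios.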

How the data were processed

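The authors deposited, per the file headers, the mean intensity of each spot with the median intensity of its local background (Agilent Feature Extraction 10.5.1.1), processed intensities and their log10 ratio. A table of log2 ratios processed by the authors was deposited as well, and its steps are not given in the sources used here beyond the name limma in the submitters' processing notes. From the mean intensities, background was corrected by normexp with an offset of 50 in limma 3.58.1 (R 4.3.3), followed by loess within arrays without 1639 control spots, removal of 126 and 130 outlier spots, and averaging of the spots of a probe. Brightness was normalized between arrays by Aquantile. The 22731 probes marked on both arrays as well above background in Cy5, in Cy3 or in both were tested against 0 by lmFit and eBayes, two-sided, with Benjamini-Hochberg adjustment. A gene was read from its brightest tested probe. Code was tested on simulated data.

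The members, lists and tests were chosen with earlier results of these data known. Named were all 10 members, pathway genes past an adjusted p of 0.05 or 2-fold on both arrays, the highest and lowest of each list, defining markers, Sox9 and the 5 genes nearest to Tgfbi. Of 81 pathway genes 1 was not found by name, and 1 listed marker is not reported here. The number of arrays limits the precision. Alternatives covered background correction, normalization, source of values, filter, choice of probe, leaving out an array and the methods' t-test.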

Additional observations from a re-analysis of the deposited data

Results flagged for a closer look

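Of the 9 tested genes, 4 had log2 ratios of opposite sign on the 2 arrays, below 0 in the genotype and above 0 in the treatment comparison. Of all tested genes 18.4% had this pattern. The 9 were chosen with their ratios known, so nothing is read from this share. The difference of treatment minus genotype comparison was 0.96 for Tgfb3 (0.956), 0.67 for Id3 (0.671), 0.40 for Id2 (0.396) and 0.38 for Bmp4 (0.378). Each comparison is 1 array, so these differences were not tested.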

How the results depend on the processing

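The mean log2 ratio of Tgfbi kept its direction, and without 1 array it was 2.20 to 2.92. Members at least 2-fold the same way on both arrays numbered 1, and 2 on the scanner software's log ratios, where Id1 joined Tgfbi. Of the recomputed means of the other 8 tested members, counting those that changed at all and leaving out the single arrays, 47 moved by less than the spread between arrays and 5 by more, 4 with median centring and 1, Id1, on the scanner software's ratios. Other pathway genes past the 2-fold rule numbered 4, but 1 with the arrays scaled to 1 spread and 6 to 7 without 1 array, when a single array decides. Their median of 0.08 became 0.29 with median centring, and -0.01 on the scanner software's ratios. limma called 0 of them, but 8 with median centring and 2 with the deposited log2 ratios. Over all tested probes the 2-fold count of 95 became 148 without background subtraction, 147 on the authors' values, 600 on the scanner software's and 298 to 382 without 1 array. limma's 2 calls became 522 with median centring, 68 on the authors' values, 21 with no filter, and 0 with an offset of 10, without background subtraction, with the arrays scaled to 1 spread, on the scanner software's ratios and with the methods' t-test. The causes were not tested. No paired analysis was possible because each comparison is 1 array and the ratio already pairs its RNAs. The 2 arrays, without a dye swap, and signals near background (Id1, Smad7) limit what can be said.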
